A study of Mus musculus with 24 samples.

Results

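Genes of the erythroid lineage were followed in bone marrow LSKs, the Lin-Sca-1+c-Kit+ fraction that holds mouse stem cells and multipotent progenitors. The 9 members were taken by symbol from the 24091 genes of the deposited count table: the transcription factors Klf1, Gata1 and Gfi1b, the receptor Epor, the cytosolic enzymes Car1 and Car2, and the membrane proteins Ermap, Rhd and Aqp1. Each of the 9 symbols matched 1 row, and each passed the filter on low counts that left 13520 genes to be tested. The RNA came from 24 mice in 4 groups of 6, each with 3 females and 3 males. WT mice were miR-142+/+ and miR-142 KO mice were miR-142-/-, both without BCR-ABL. CP CML mice were miR-142+/+ BCR-ABL and BC CML mice were miR-142-/- BCR-ABL. CP and BC are the names given to the chronic phase and the blast crisis of chronic myeloid leukemia. All mice were on the B6 background. The CML mice carried the SCLtTA/BCR-ABL transgenes, in which the SCL (Tal1) promoter drives a tetracycline-repressed activator of BCR-ABL, and were sampled 2 weeks after tetracycline withdrawal. The miR-142 deletion of the KO and BC CML mice was carried in the germline and so not limited to LSKs, and the ages of the mice are not given in the sources used here. CML mice with and without the deletion were matched by the authors for age, sex, SCL and BCR-ABL.

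Red cell formation starts in multipotent progenitors that come to express Gata1 and Klf1, the zinc finger factors that switch on most genes of the red cell program. Gfi1b is a repressor that acts beside Gata1, and Epor is the receptor through which erythropoietin keeps committed progenitors alive. Carbonic anhydrases 1 and 2 interconvert carbon dioxide and bicarbonate in the red cell, Ermap and Rhd are red cell surface proteins, and Aqp1 is its water channel. Much of this program lies downstream of the LSK gate, so LSKs hold traces of it in primed cells. In bulk libraries a lower value can come from fewer cells of a type or from less RNA per cell, and these cannot be told apart.

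The targeted locus, Mir142 on chromosome 11, checked the labels. Its counts were 94 to 127 in the WT and 68 to 153 in the CP CML libraries, and 0 in all 12 libraries of the KO and BC CML groups. The mature arms are shown because both are missing from those mice, with the seed, bases 2 to 8, in capitals (RefSeq, GRCm38.p6).
mmu-miR-142a-5p: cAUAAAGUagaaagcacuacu
mmu-miR-142a-3p: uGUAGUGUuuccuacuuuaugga
The arms have different seeds. The 7-base complement of the 5p seed, ACTTTAT, and that of the 3p seed, ACACTAC, were searched in the longest 3' UTR of each gene in GENCODE vM21. None of the 9 members held either run. Over all 21020 genes with a 3' UTR, 14.3% held the first and 6.03% the second. Of the 9 members, 7 have 3' UTRs of 162 to 680 bases, below the median of 961 over all genes, and those of Aqp1 (1758 bases) and Ermap (2554 bases) are longer. The absence says only that these letters are not in these sequences.

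Promoters of 7 members were found in RefSeq (GRCm38.p6, 250 bases before to 50 after the start). The GATA motif AGATAA, searched on both strands, was in the promoters of Epor and Rhd, against 11.2% of 32851 promoters. These windows of 30 bases are shown because they place a receptor and a membrane gene beside the same motif, which is in capitals and reads as its reverse complement in Epor.
Epor, chr9:21963613-21963642, minus strand: ggtggctgtagcTTATCTgtccccagcctg
Rhd, chr4:134864481-134864510, plus strand: cccggcagcctgAGATAAgacctttggcgg
In Epor the motif begins 54 bases and in Rhd 43 bases before the start. The motif CCNCNCCC, of the kind bound by Klf1, was in 5 of the 7 promoters (Gata1, Gfi1b, Epor, Rhd and Aqp1) against 49.5% of all, and the E-box CANNTG was in 6 of the 7, all but Ermap, against 72.3% of all. Both shares are common enough that these matches set no member apart.

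Library totals ran from 16267965 to 24687077 counts, and levels are given in CPM, the count scaled to a fixed library total. A count of 0 allows up to 3 counts, which covers counting error only. The LSK markers Ly6a and Kit were read in every library. Of 8 markers of red cells and erythroblasts, 5 had a row in the table, among them Slc4a1, Hba-a2 and Hbb-bs, and these 5 summed to 0.530 to 30.6 CPM per library. Alas2, the erythroid enzyme of haem synthesis, averaged 0.774 CPM in WT LSKs and did not pass the filter. A pair of libraries stood apart. WT replicate 3 had a macrophage marker sum of 1349 CPM against a WT median of 151.4 and the highest globin sum, yet was the lowest or highest WT library for only 1 member each. The library of miR-142 KO replicate 3 was the lowest of its group for all 9 members, and results that rest on it are given with and without it.

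**Figure D1:**
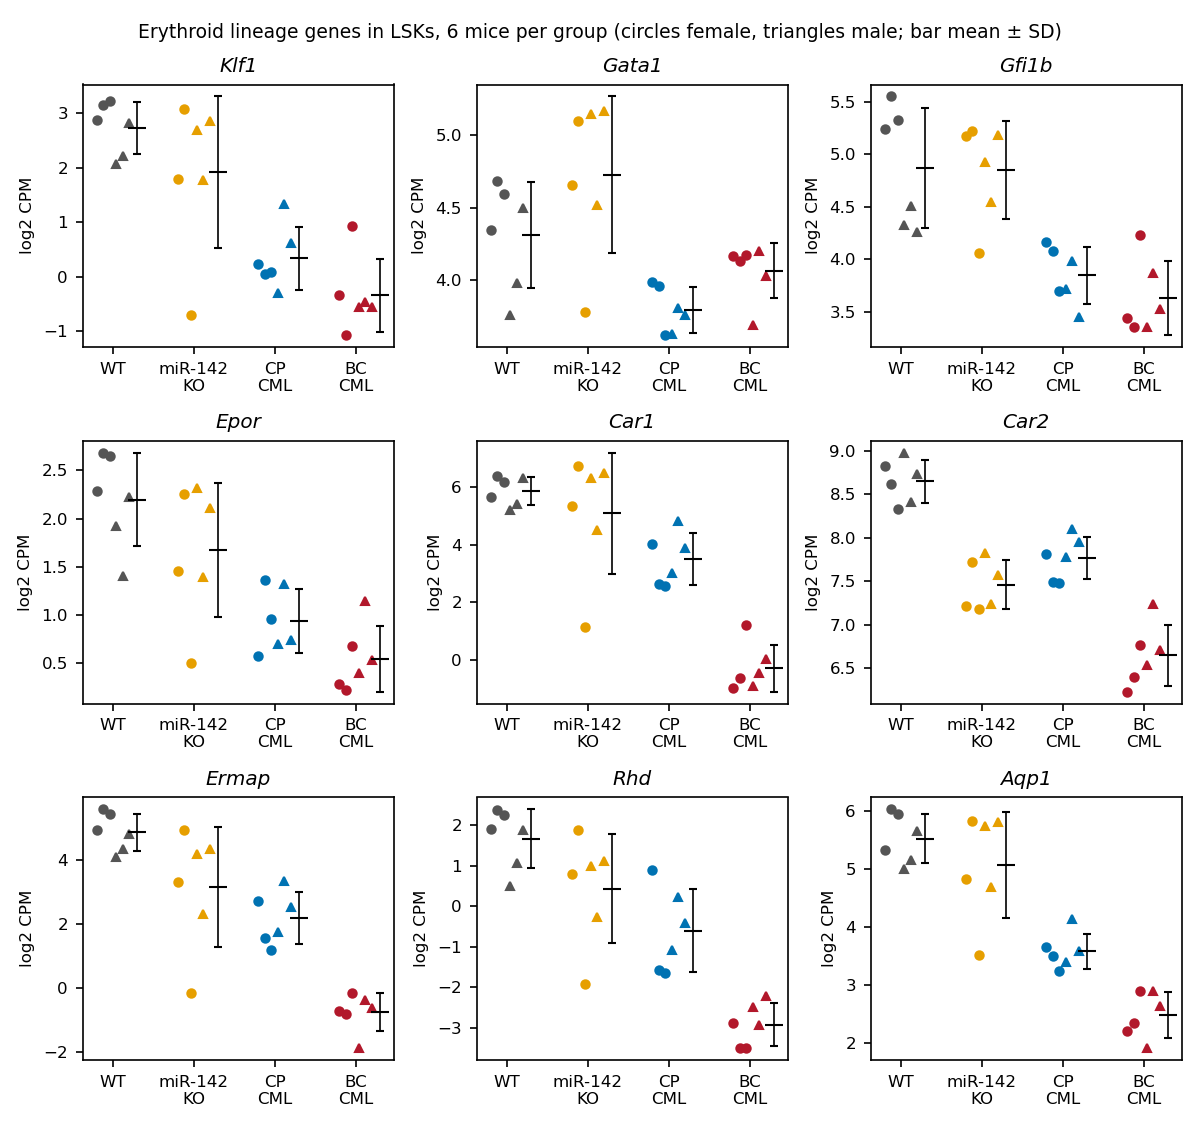
Level of each member in each library, as log2 CPM with a prior count of 2 (vertical axis, scaled for each gene), by group (horizontal axis), with circles for females, triangles for males and a bar for the mean ± SD of 6 mice. The CP CML points of Klf1, Gfi1b, Epor, Car1, Car2, Ermap and Aqp1 lie below all WT points, and the BC CML points of Car1, Car2, Ermap, Rhd and Aqp1 lie below all CP CML points.

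The comparison of CP CML with WT asked what BCR-ABL does to the program when miR-142 is intact. All 9 members fell, by 1.46-fold for Gata1 to 6.13-fold for Ermap. Over all tested genes 22.9% fell in this comparison. For 7 of the 9, all but Gata1 and Rhd, no CP CML library reached the lowest WT library in CPM, against 12.8% of all tested genes. The median log2 fold change of the 9 was -1.97, against -0.02 over all genes tested.

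Klf1, the erythroid activator of globin and membrane genes, ran from 4.31 to 9.44 CPM in WT LSKs (median 7.48) and from 0.723 to 2.49 in CP CML LSKs (median 1.04). Every CP CML library was below every WT library. The log2 fold change was -2.41 (standard error 0.44, edgeR quasi-likelihood test, adjusted p = 0.0001625). Gata1, the master regulator that Klf1 depends on, moved least. It ran from 14.2 to 26.5 CPM in WT (median 22.5) and from 12.2 to 16.0 in CP CML LSKs (median 13.9), so the groups overlapped between 14.2 and 16.0 CPM. The log2 fold change was -0.55 (standard error 0.18, edgeR adjusted p = 0.01783), and without WT replicate 2 it was -0.46 with an adjusted p of 0.0563. Within sexes it was -0.68 in females (adjusted p = 0.07585) and -0.39 in males (adjusted p = 0.1841), neither a call. Gfi1b ran from 19.9 to 48.6 CPM in WT (median 31.8) and from 11.0 to 18.1 in CP CML LSKs (median 14.5), a fall by 1.10 on the log2 scale. Epor ran from 2.66 to 6.55 CPM in WT (median 4.94) and from 1.41 to 2.45 in CP CML LSKs (median 1.72), a fall by 1.32. For both genes the groups were separate, Epor by the smaller distance.

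Among the enzymes, Car1 ran from 39.0 to 87.0 CPM in WT (median 63.5) and from 5.84 to 28.8 in CP CML LSKs (median 11.5), a fall by 2.20 on the log2 scale (edgeR adjusted p = 0.002029). Car2 was the most abundant member in every group, with 424.1 ± 75.7 CPM (SD, n = 6) in WT and 221.6 ± 39.6 in CP CML LSKs, and fell by 0.88 (adjusted p = 9.735e-05). Its lowest WT library was at 330.8 and its highest CP CML library at 278.4 CPM. Among the membrane genes, Ermap ran from 17.9 to 49.6 CPM in WT (median 30.8) and from 2.16 to 10.3 in CP CML LSKs (median 4.49), a fall by 2.62. Rhd ran from 1.41 to 5.26 CPM in WT (median 3.83) and from 0.230 to 1.78 in CP CML LSKs (median 0.523), a fall by 2.26, and CP CML replicate 1 was above WT replicate 4. Aqp1 ran from 33.8 to 67.4 CPM in WT (median 47.5) and from 9.34 to 17.7 in CP CML LSKs (median 11.5), a fall by 1.97 with the smallest adjusted p of the 9, 1.789e-05.

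The comparison of BC CML with CP CML asked what the loss of miR-142 adds in CML. Here Car1, Car2, Ermap, Rhd and Aqp1 fell further, and Klf1, Gata1, Gfi1b and Epor did not pass the threshold. The 5 calls, all lower, stand beside 17.6% of all tested genes. In all 5 the groups were separate, against 12.6% of all. Among all calls 46.3% were lower, and 57.6% under upper quartile normalization, which left the 5 members called. Whether the enzyme and membrane genes as a set differ from the regulators was not tested.

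Car1 showed the largest fold change of the 9. Its 6 BC CML libraries held 9, 13, 44, 10, 15 and 22 counts, where the CP CML libraries held 266, 147, 127, 190, 648 and 339. In CPM it ran from 0.400 to 2.18 in BC CML LSKs (median 0.577). All BC CML values were below 5.84 CPM, the lowest CP CML value, and the log2 fold change was -3.94 (standard error 0.71, edgeR adjusted p = 0.0001361). Ermap ran from 0.173 to 0.792 CPM in BC CML LSKs (median 0.508), a fall by 3.23 from CP CML (standard error 0.65, adjusted p = 4e-04). Rhd was at the limit of the depth in BC CML LSKs, with 7 counts over the 6 libraries, 0 of them in replicates 2 and 3, against 89 counts over the CP CML libraries. Its fitted fall by 3.62 (edgeR adjusted p = 0.001154) depends on the prior count, and the ratio of the pooled counts gave a level 13.5-fold lower with an exact 95% Poisson interval of 6.28 to 34.5, which covers counting error only. When only these 12 libraries were fitted, Rhd did not pass the filter and was not tested.

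Car2 and Aqp1 fell by less and stayed well measured. Car2 ran from 70.7 to 147.8 CPM in BC CML LSKs (median 93.8), a fall by 1.10 from CP CML (standard error 0.16, edgeR adjusted p = 7.903e-06). Aqp1 ran from 3.50 to 7.23 CPM (median 5.26), also a fall by 1.10 (standard error 0.31, adjusted p = 0.006638). For both, the highest BC CML library was below the lowest CP CML library.

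The values of the 4 regulators overlapped between the CML groups. Klf1 ran from 0.367 to 1.78 CPM in BC CML LSKs (median 0.596), with a log2 fold change of -0.71 (95% interval -1.65 to 0.24, the fold change ± 1.96 standard errors, edgeR adjusted p = 0.2548). At 9 to 36 counts per BC CML library its interval does not exclude a fall of the size seen for Car2. Gata1 ran from 12.3 to 17.9 CPM (median 16.7), with a log2 fold change of 0.28 (interval -0.08 to 0.64, adjusted p = 0.2429), and passed the threshold as higher when only these 12 libraries were fitted (0.26, adjusted p = 0.04296). Gfi1b ran from 9.58 to 18.4 CPM (median 10.5) and had -0.20 (interval -0.66 to 0.26, adjusted p = 0.5182). Epor ran from 1.02 to 2.08 CPM (median 1.23) and had -0.42 (interval -0.97 to 0.14, adjusted p = 0.2526).

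Within sexes, with 3 mice a group, the males gave 6 calls in this comparison, the same direction for Klf1 included (-1.33, edgeR adjusted p = 0.04399). The females gave 1, Car2. Over all genes the fit of males called 3794 and the fit of females 1693, so the counts of members are not on a like footing. In females the log2 fold changes of Car1 (-3.15, adjusted p = 0.1081), Ermap (-2.66, adjusted p = 0.1304), Rhd (-5.08, adjusted p = 0.06686) and Aqp1 (-0.99, adjusted p = 0.1995) kept their direction and missed the threshold.

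**Figure D2:**
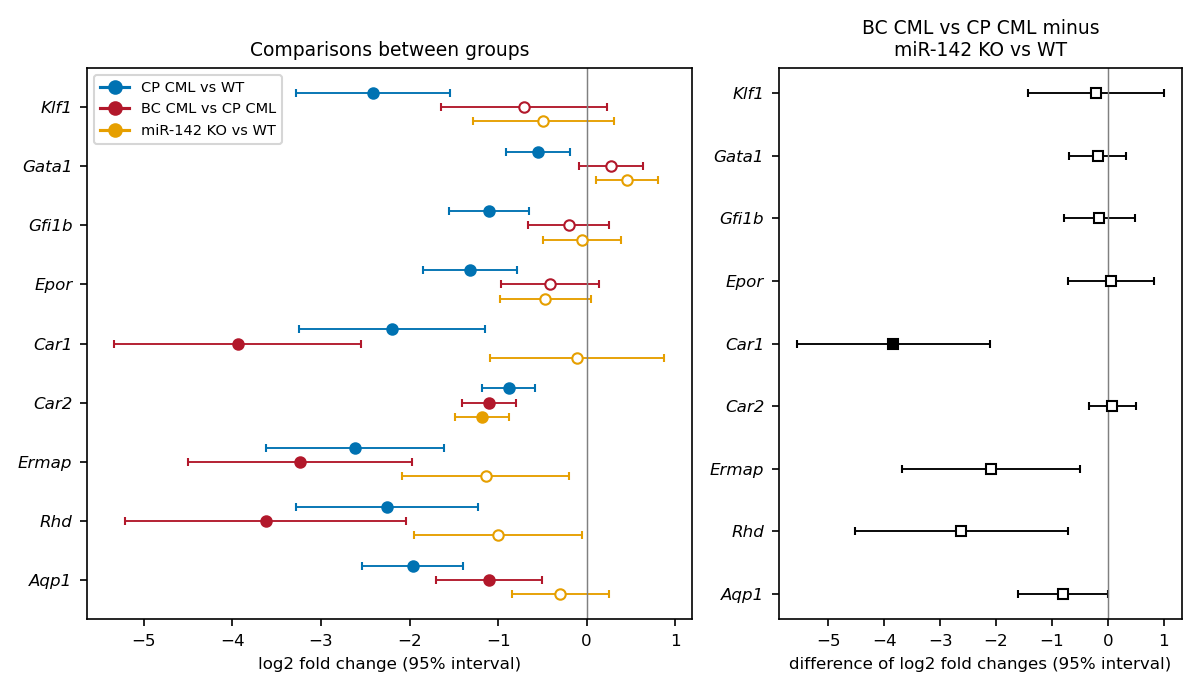
Log2 fold changes of the 9 members (points) with 95% intervals (lines, 1.96 standard errors) in 3 comparisons on the left, and on the right the BC CML against CP CML change minus the miR-142 KO against WT change, with filled symbols for an adjusted p below 0.05. All 9 CP CML points are filled and left of 0, the BC CML points are filled from Car1 to Aqp1 only, and on the right only Car1 is filled, at -3.83.

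Loss of miR-142 without BCR-ABL was read from miR-142 KO against WT. Of the 9, only Car2 passed the threshold in a comparison where 16.4% of all tested genes fell. Car2 ran from 139.1 to 230.6 CPM in KO LSKs (median 168.7), below all WT libraries (8.73% of all tested genes were separate in this way), and fell by 1.19 (standard error 0.16, edgeR adjusted p = 2.819e-06). With KO replicate 3 left out, Car2 was still the 1 member of the 9 whose groups were separate, against 10.3% of all tested genes. Its level in KO LSKs, 177.7 ± 37.0 CPM (SD, n = 6), stood beside that in CP CML LSKs, 221.6 ± 39.6. In WT LSKs Car2 held 66.5% of the summed CPM of the members. The sum of 9 LSK markers averaged 3870 CPM in WT, 3299 in CP CML, 2837 in KO and 2503 in BC CML LSKs, the order of the Car2 means. WT replicate 4 was the highest WT library for Car2 and for that sum, and the lowest for 6 members. Whether the fall of Car2 belongs to the erythroid program was not tested.

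Gata1 was the member with a positive estimate. It ran from 13.1 to 35.9 CPM in KO LSKs (median 29.6), with a log2 fold change of 0.46 (standard error 0.18, edgeR adjusted p = 0.0506). The call turned on single libraries and on the method: the adjusted p was 0.04128 by the likelihood ratio test, 0.03837 by DESeq2, 0.04717 with sex as a covariate, 0.03149 without WT replicate 2, 0.03757 without WT replicate 3, 0.03978 without KO replicate 5, 0.04889 without BC CML replicate 4, and 0.002932 without KO replicate 3, where the change was 0.60. Within sexes the change was 0.86 in males (adjusted p = 0.01046) and 0.057 in females (adjusted p = 0.8935). Of 34 alternatives 25 left Gata1 uncalled. Among them were upper quartile normalization (edgeR adjusted p = 0.08046) and the fit of only the 12 libraries compared (edgeR adjusted p = 0.1572).

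Ermap ran from 0.765 to 30.7 CPM in KO LSKs (median 14.1) and had -1.14 (standard error 0.48, edgeR adjusted p = 0.06494). Rhd ran from 0.170 to 3.61 CPM (median 1.79) and had -1.002 (adjusted p = 0.109). Without KO replicate 2, the highest of its group in 6 of the 9 members, both passed the threshold, Ermap at -1.52 (adjusted p = 0.01863) and Rhd at -1.37 (adjusted p = 0.03676), and the count of members called rose to 3. The remaining estimates were small: -0.49 for Klf1, -0.05 for Gfi1b, -0.47 for Epor, -0.11 for Car1 and -0.30 for Aqp1, with adjusted p between 0.1698 and 0.8855.

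The difference of these effects, BC CML against CP CML minus KO against WT, was called for Car1 among the 9, beside 2.08% of all tested genes called lower. Car1 ran from 2.04 to 105.0 CPM in KO LSKs (median 60.4) against the WT median of 63.5, so its 95% interval without BCR-ABL reached from -1.09 to 0.88. With BCR-ABL the interval reached from -5.33 to -2.55. The difference was -3.83 (standard error 0.88, edgeR adjusted p = 0.01529). With each library left out in turn it lay between -4.36 and -3.48 (adjusted p between 0.0009469 and 0.03119), in males it was -4.90 (adjusted p = 0.04301) and in females -2.68 (adjusted p = 0.4378). The differences of Rhd (-2.62, adjusted p = 0.1288) and Ermap (-2.09, adjusted p = 0.1493) missed the threshold. That of Ermap passed without KO replicate 3, at -2.37 (adjusted p = 0.03192). Car2 fell by 1.10 with and by 1.19 without BCR-ABL, a difference of 0.08 (interval -0.34 to 0.51, adjusted p = 0.8858).

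BC CML against miR-142 KO compared mice with and without BCR-ABL where miR-142 is absent from both groups. All 9 members fell, beside 19.3% of all tested genes, from 0.73 on the log2 scale for Gata1 (edgeR adjusted p = 0.003172) and 0.80 for Car2 to 4.71 for Ermap, 4.88 for Rhd and 6.04 for Car1 (adjusted p = 1.274e-06). Klf1 fell by 2.63, Aqp1 by 2.77, Gfi1b by 1.25 and Epor by 1.27. When only the 12 libraries of these groups were fitted, Rhd did not pass the filter and was not tested. The groups were separate only for Rhd and Aqp1, against 5.65% of all tested genes. With KO replicate 3 left out, a choice made after seeing the data, they were separate for all 9, against 13.4% of all. The 4 comparisons between groups share libraries with each other, each group entering a pair of them, so their values are given side by side only.

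The order of the group means therefore differed by gene. Car1 and Aqp1 were ordered WT, KO, CP CML, BC CML by mean, with WT and KO not separated. Without KO replicate 3 the KO mean of Car1 was 67.1 CPM, above that of WT, and the mean of Aqp1 was 44.1 CPM, still below it. Car1 averaged 63.2 ± 20.4, 56.3 ± 40.4, 13.3 ± 8.82 and 0.842 ± 0.677 CPM (SD, n = 6 each), and Aqp1 49.4 ± 13.9, 38.5 ± 19.4, 12.2 ± 2.93 and 5.44 ± 1.55. Ermap (32.3 ± 12.5, 14.1 ± 11.0, 5.12 ± 3.04 and 0.516 ± 0.211) and Rhd (3.53 ± 1.51, 1.69 ± 1.19, 0.736 ± 0.610 and 0.0490 ± 0.0480) had the same order. So did Klf1, Gfi1b and Epor, whose CML groups overlapped. For Gfi1b the WT mean was 32.4 CPM, and the KO mean without replicate 3 was 32.7 CPM, so the order of these groups turned. By mean, Car2 was ordered WT, CP CML, KO, BC CML, and Gata1 KO, WT, BC CML, CP CML. CP CML and KO were not tested against each other. Their Car2 values overlapped, the lowest CP CML library being at 177.7 CPM and the highest KO library at 230.6. For Gata1 neither KO against WT nor BC CML against CP CML was called in the main test. Scaled by gene length, Car2 led in each group, at 237.9 RPKM in WT and 55.4 in BC CML LSKs. In WT LSKs Car1 came next (51.0 RPKM) and Rhd was last (2.23 RPKM). In BC CML LSKs Car1 was at 0.679 RPKM, close to Epor (0.716) and below Gata1 (8.10) and Gfi1b (6.69).

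**Figure D3:**
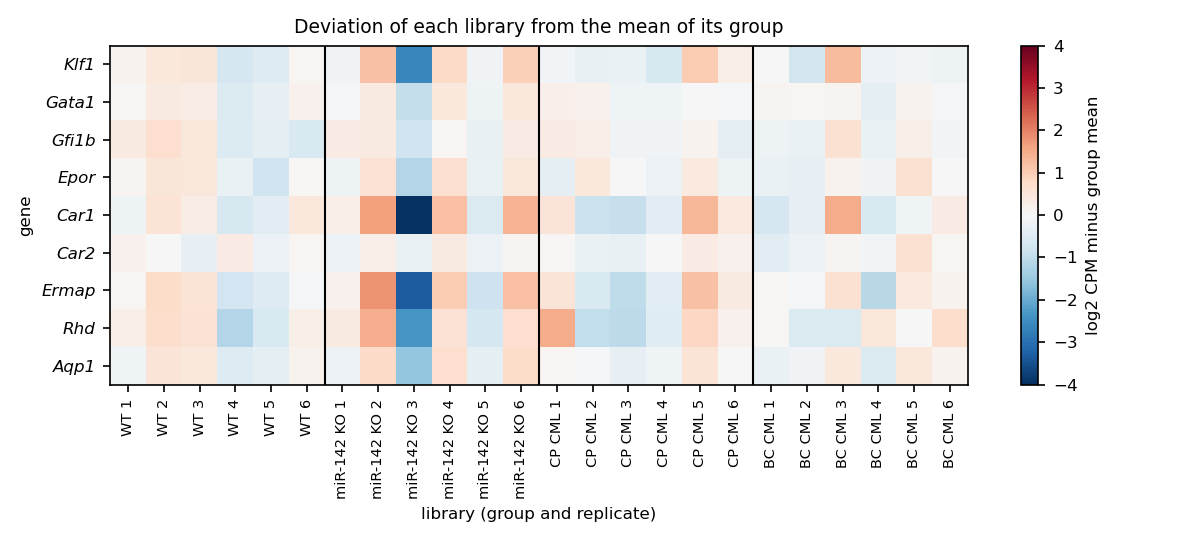
Deviation of each library (columns, by group and replicate) from the mean log2 CPM of its group for each member (rows), red above and blue below. The column of miR-142 KO replicate 3 is blue for all 9 members, those of KO replicates 2, 4 and 6 are mostly red, and the row of Car2 is paler than the others.

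Within groups the members varied together. Over the 24 libraries, with group means taken off, the 36 pairs of members had Pearson correlations between 0.195 (Car2 and Gfi1b) and 0.949, with a median of 0.721. The libraries share depth and the cell mixture of each sort, so these are descriptions. Aqp1 followed the mean of the other members most closely (0.966) and Car2 least (0.452). Without KO replicates 2 and 3, the libraries farthest from their group, the values were 0.934 and 0.378. Genes outside the 9 whose deviations were among those most like the members' mean, among those averaging at least 1 CPM, were Abcb4 (0.961), a phospholipid transporter, Pklr (0.933), the red cell and liver pyruvate kinase, Atp1b2 (0.929), a sodium pump subunit, Ces2g (0.923), a carboxylesterase, and Add2 (0.915), an adducin of the membrane skeleton. Within the 6 BC CML libraries the values were 0.975 for Abcb4 and 0.644 for Pklr, and lower for Ces2g (0.400), Atp1b2 (0.114) and Add2 (-0.192).

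The library of miR-142 KO replicate 3 had 0.510 CPM of Klf1, 2.04 of Car1, 0.765 of Ermap and 0.170 of Rhd. Over the other 5 KO libraries Klf1 averaged 5.71 ± 2.25, Car1 67.1 ± 34.0, Ermap 16.7 ± 9.91 and Rhd 2.00 ± 1.04 CPM (SD, n = 5). Those levels of replicate 3 were below all WT and all CP CML libraries. The same library was the lowest of its group in the summed markers of neutrophils (2496 CPM, group median 6518), megakaryocytes (575.6, median 805.6) and macrophages (14.7, median 73.6), and in the LSK marker sum (2512, median 2809). It was the highest of its group in the sum of 6 globin genes (17.2, median 5.60), of the other carbonic anhydrases (63.4, median 46.6) and of erythropoietin receptor signalling genes (1468, median 1372). In the sum of 5 red cell or erythroblast markers it was the lowest (1.83, median 4.97). Hba-a2 and Hbb-bs are among those 5, so these rows held at most 1.83 CPM of its globin sum. It was also the lowest for red cell membrane (533.6, median 618.8), early erythroid progenitor (443.8, median 510.1) and haem synthesis genes (245.8, median 254.7). The same held for partners of the erythroid factors (1969, median 2177). The part of these in its erythroid levels was not tested.

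The pathway around the members was read from lists of genes. Of 20 red cell membrane genes tested, 17 fell and 0 rose in CP CML against WT (median log2 fold change -1.53), where 22.9% of all tested genes fell. In BC CML against CP CML 8 of the 20 fell, 0 rose and 12 were not called (median -0.50), where 17.6% of all fell. The medians over all tested genes were -0.02 and 0.01. Between CP CML and BC CML, Cldn13 fell by 4.15, Rhag by 4.10 and Kel by 3.55 (edgeR adjusted p at most 0.0003925).

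Rhag, the glycoprotein that carries Rh proteins such as Rhd to the membrane, was called lower in BC CML against CP CML and not in CP CML against WT. Its mean level was 5.70 ± 2.24 CPM in WT, 2.99 ± 2.36 after KO, 3.19 ± 0.656 with CP CML, and 0.176 ± 0.180 CPM with BC CML (SD over 6 mice). CP CML against WT gave -0.79 (edgeR adjusted p = 0.1676) and BC CML against CP CML -4.10 (adjusted p = 1.721e-05). The difference of the miR-142 effects was -3.23 (standard error 0.78, edgeR adjusted p = 0.0199). Rhag was the 1 gene of the 20 called in that contrast, where Car1 was the 1 member called. In BC CML LSKs Rhag was near the limit of the depth, where 3 counts are 0.122 to 0.149 CPM. Both the fall and the difference are limited by this.

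Genes of early erythroid progenitors fell in 11 of 12 tested in CP CML against WT and in 4 of 12 in BC CML against CP CML, with 0 rising, beside the same 22.9% and 17.6% of all tested genes. The median log2 fold changes were -0.79 and -0.31. Ces2g went from 33.1 ± 11.99 CPM in WT through 6.31 ± 2.21 with CP CML to 0.886 ± 0.389 with BC CML (SD over 6 mice), and Atp1b2 from 17.0 ± 6.44 through 3.23 ± 1.61 to 1.10 ± 0.220. Both falls of each gene passed the threshold.

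Partners of the erythroid factors moved less. Of 14 tested, 9 fell in CP CML against WT (median log2 fold change -0.40, with 22.9% of all tested genes falling), among them Lmo2 (-0.48), the bridge of the Tal1 complex, and Zfpm1 (-0.70), the Gata1 cofactor FOG1. In BC CML against CP CML 5 of the 14 fell, beside 17.6% of all, led by Sox6 (-1.41), Hemgn (-1.13) and Bcl11a (-0.58), and Lmo2 rose by 0.21 (edgeR adjusted p = 0.0037). Sox6, a repressor that helps to silence embryonic globin with Bcl11a, stood at 25.3 ± 3.82 CPM with CP CML against 9.12 ± 3.57 with BC CML (SD over 6 mice), with separate groups. Tal1, whose promoter also drives the CML transgene, gave -0.08 in BC CML against CP CML (adjusted p = 0.4786) and -0.08 in CP CML against WT (adjusted p = 0.4391).

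Genes listed as alternative fate factors were called higher or not called in the comparisons between groups. The list is not limited to genes that act against the erythroid program. Of 6 tested, 4 rose in CP CML against WT, where 22.5% of all tested genes rose, and 0 fell: Spi1 by 0.46, Gata2 by 0.65, Cebpa by 0.66 and Gfi1 by 0.55. In BC CML against CP CML 2 of the 6 were called, both higher: Gfi1 rose by 0.62 (edgeR adjusted p = 0.000605) and Spi1, the myeloid factor PU.1 that antagonises Gata1, by 0.22 (adjusted p = 0.01298), beside 20.4% of all genes. In KO against WT 5 of the 6 rose, beside 19.9% of all.

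Lists for supply and signalling showed no common direction. Over all tested genes 22.9% fell and 22.5% rose in CP CML against WT, and 17.6% fell and 20.4% rose in BC CML against CP CML. Of 7 haem synthesis genes tested, 5 fell and 2 rose in CP CML against WT, and 2 fell and 3 rose in BC CML against CP CML. Uros fell by 0.49 in the first and rose by 0.25 in the second. Of 7 iron uptake genes, 1 fell (Slc25a37, mitoferrin, by 0.33) and 1 rose in CP CML, and 2 rose in BC CML, Slc11a2 by 0.58 and Steap3 by 0.57. Of 11 genes of erythropoietin receptor signalling, 4 fell and 3 rose in CP CML against WT, with Socs3, a feedback inhibitor, rising by 2.27, and 5 rose and 1 fell in BC CML against CP CML, with Cish, another such inhibitor, rising by 0.90. These signalling genes serve many cytokine receptors. Of 6 globin genes with a row in the table, 3 were tested, and Hba-a2 fell by 1.76 in CP CML against WT (edgeR adjusted p = 0.01855). The sum of the 6 had a median of 6.13 CPM in WT and 6.44 in CP CML LSKs, and reached 25.5 CPM in WT replicate 3.

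**Figure D4:**
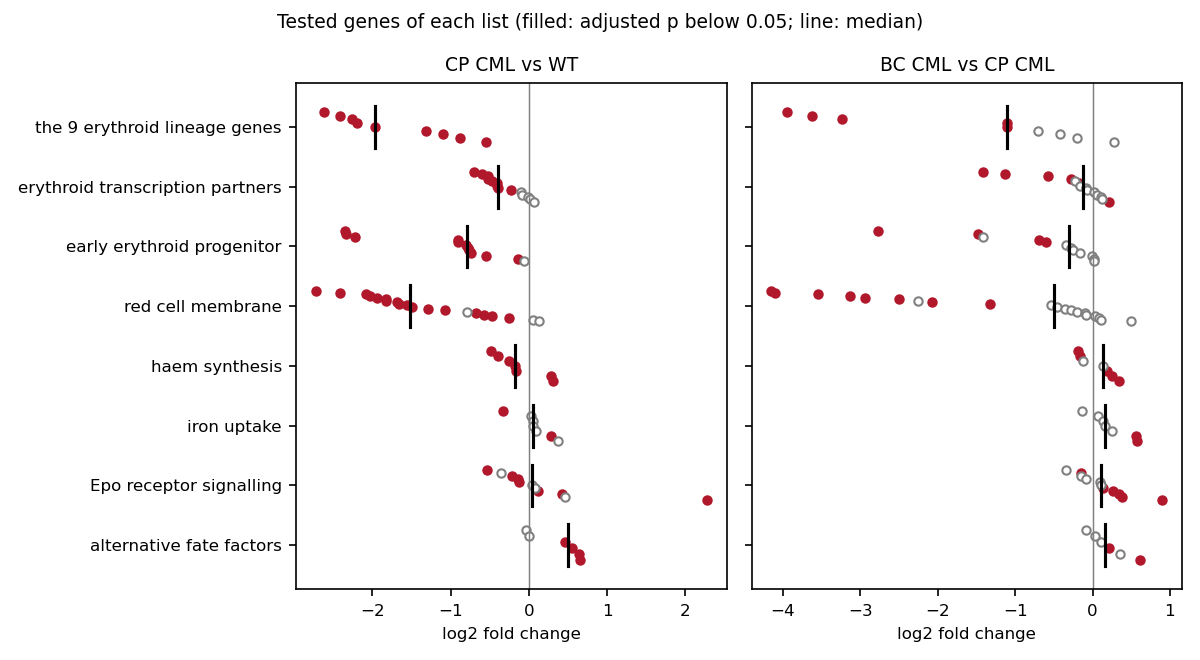
Log2 fold changes (horizontal axis) of the tested genes of 8 lists (rows), in CP CML against WT on the left and BC CML against CP CML on the right, red for an adjusted p below 0.05, white for the others, and a line at each list's median. Most red cell membrane points lie left of 0, with medians at -1.53 and -0.50, and the alternative fate factors lie mostly right of 0.

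Other carbonic anhydrases moved in both directions. Of 7 tested, 3 rose and 2 fell in CP CML against WT, where 22.5% of all tested genes rose and 22.9% fell. In BC CML against CP CML 2 rose and 1 fell, where 20.4% of all rose and 17.6% fell. Car8, a family member without the catalytic activity, rose from 0.276 ± 0.233 CPM in WT to 4.27 ± 1.31 with CP CML and to 19.6 ± 5.57 with BC CML (SD over 6 mice, log2 fold change 3.99 and 2.27, edgeR adjusted p = 2.343e-07 and 8.818e-06). Car3 fell in both of these comparisons, as Car2 did, and had its group order, from 7.03 ± 0.930 through 4.25 ± 1.19 to 1.48 ± 0.519 CPM, with 3.05 ± 0.779 in KO LSKs.

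Markers of other lineages also differed between the groups. Over all tested genes 22.5% rose and 22.9% fell in CP CML against WT, 20.4% rose and 17.6% fell in BC CML against CP CML, and 19.9% rose and 16.4% fell in KO against WT. The summed level of 10 mast cell or basophil markers had a median of 458.9 CPM in WT (99.1 to 627.6), 1093 in KO (289.9 to 2755), 3294 with CP CML (2205 to 4369) and 9453 with BC CML (6139 to 12560). Of these 10, 8 rose in CP CML against WT and 7 in BC CML against CP CML, Cpa3 from 82.2 ± 28.2 CPM in WT to 3926 ± 1032 in BC CML LSKs. Gata1 is used by mast cells, eosinophils and megakaryocytes as well as by red cell precursors. Of 12 megakaryocyte markers tested, 9 rose and 1 fell in KO against WT, where the Gata1 estimate was positive, and 3 rose and 5 fell in CP CML against WT. In BC CML against CP CML, where the Gata1 estimate was also positive, 2 rose and 2 fell. All 5 eosinophil markers fell in BC CML against CP CML. Of 9 neutrophil markers, 8 rose and 0 fell in KO against WT, 4 rose and 1 fell in CP CML against WT, and 3 rose and 1 fell in BC CML against CP CML. Of 10 macrophage markers, 8 fell in KO against WT, 0 in CP CML against WT and 4 in BC CML against CP CML, with 0 rising in any of the 3. Of 9 LSK markers, 5 fell and 1 rose in both CP CML against WT and BC CML against CP CML. The part of these changes in the levels of the 9 members was not tested.

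On the count table's mm10 coordinates the members lie on chromosomes 8 (Klf1, 84901928 to 84905295), X (Gata1, 7959260 to 7976574), 2 (Gfi1b, 28609450 to 28621982), 9 (Epor, 21958899 to 21963576), 4 (Ermap, 119175457 to 119190011, and Rhd, 134864536 to 134896172) and 6 (Aqp1, 55336299 to 55348555). Car1 (14766214 to 14808365, minus strand) and Car2 (14886426 to 14900770, plus strand) are neighbours on chromosome 3, and Car2 was called in KO against WT where Car1 was not. In GENCODE vM21 no exon of a member's longest coding transcript overlapped an exon of another gene, so the strand setting of the counting, which is not given in the sources used here, bears on no annotated overlap. Car1 shared 14.5% of its 50-base stretches with the predicted gene Gm5843, and Ermap 0.289% with Gm37536. The other 7 members shared none.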

How the data were processed

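LSKs of 24 mice, 6 per group, were analysed, each mouse giving 1 library. The study's methods give 5 mice per group and do not name them, so all 6 were used. Replicates were numbered in the order of the labels' records. What the authors deposited is a table of raw read counts, 1 row per gene, not normalized. By their methods and the submitters' processing notes, paired reads of 101 bases were trimmed with Trimmomatic and FASTP, aligned to mm10 with STAR 2.6.0 and counted with HTSeq 0.11.1. The annotation and the strand setting are not given in the sources used here. A further deposited column holds gene length in kilobases, a value of another kind that was used for RPKM. No column was left without a sample.

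Counts were tested with edgeR 4.0.16 under R 4.3.3: TMM normalization, filterByExpr by group, a quasi-likelihood fit to all 24 libraries together, and p-values adjusted by Benjamini-Hochberg over the 13520 tested genes, with a threshold of 0.05. The authors' own test, edgeR's likelihood ratio test, was an alternative, beside DESeq2 1.42.0. Standard errors are the fold change divided by the root of the F statistic. CPM and RPKM use library totals, and rescaling by TMM changed group means by a factor of 0.957 to 1.05. Groups were called separate or not overlapping on CPM. Likeness is Pearson's correlation of log2 CPM (prior count 2) after removal of group means. Sequences were read with Python 3.11.15, figures drawn with matplotlib. The test was checked on simulated counts. No within-group pair of libraries was close enough to be 1 library deposited in duplicate.

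The members, the lists and the tests were chosen with earlier results of these data known. Named genes are the 9 members, Mir142, up to 4 genes per list with the smallest p in BC CML against CP CML and in CP CML against WT, and 6 genes by likeness. Rhag's other contrasts, and the values of Alas2, Ly6a and Kit, were chosen after seeing the data. Some genes that this rule names are not reported here.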

Additional observations from a re-analysis of the deposited data

Results flagged for a closer look

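Of 36 sets of 6 libraries (9 genes in 4 groups), 3 had a library far from the other 5 by Dixon's ratio, the gap to the nearest library over the whole range, on log2 CPM. Chance flags about 1 in 20 such sets. Klf1 in miR-142 KO replicate 3 had a ratio of 0.654, at 0.510 CPM against 3.36 to 8.33 CPM in the other 5 libraries. Klf1 in BC CML replicate 3 had a ratio of 0.630, at 1.78 CPM against 0.367 to 0.667 CPM. Gata1 in BC CML replicate 4 had a ratio of 0.656, at 12.3 CPM against 15.5 to 17.9 CPM. The miR-142 effect on Car1 differed between CML and normal LSKs by -3.83 on the log2 scale (edgeR quasi-likelihood test of the difference, adjusted p = 0.01529), with every BC CML library below every CP CML library and overlapping miR-142 KO and WT libraries.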

How the results depend on the processing

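The alternatives were the likelihood ratio test, DESeq2, RLE and upper quartile normalization, no filter, at least 1 CPM in 6 libraries, sex as a covariate, only the 12 libraries compared, females only, males only, and each of the 24 libraries left out. Of 1519 values of single members under them, 1461 kept their direction and side of the threshold, 12 lost the call, 16 gained it and 30 changed sign. The RLE, upper quartile and filter alternatives changed none of these.

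Counts of members called moved as follows, and the cause was not tested. KO against WT went from 1 to 2 by the likelihood ratio test, DESeq2 and with sex as a covariate (Gata1 added), and to 3 in males only. It was 1 to 3 with libraries left out, and 3 without KO replicate 2. The difference of the miR-142 effects went from 1 to 2 by the likelihood ratio test and DESeq2 (Rhd added, -2.65 with adjusted p = 0.04898 and -2.80 with adjusted p = 0.048), to 0 in females only, and was 1 to 2 with libraries left out, 2 without KO replicate 3. Over all genes the females-only fit called 28 in that contrast, against 539 in the main fit. BC CML against CP CML went from 5 to 1 in females only and stayed at 5 with any library left out. Females only gave 1693 calls over all genes there, against 5137 in the main fit. With only the 12 libraries compared, Gata1 was called in this comparison and Rhd was not tested. CP CML against WT gave 7 to 9 and BC CML against KO 6 to 9. Over all genes, upper quartile normalization moved the share of calls that were lower from 46.3% to 57.6% in BC CML against CP CML and from 45.3% to 58% in KO against WT.

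Signs changed only among values that were not called in the main test. In KO against WT, Gfi1b was 0.0068 with sex as a covariate, and in males only Klf1 was 0.11, Gfi1b 0.54 (edgeR adjusted p = 0.04833, a call), Epor 0.10, Car1 0.26 and Aqp1 0.19. With libraries left out Gfi1b ran from -0.16 to 0.11 and Car1 from -0.37 to 0.15. For the difference of the effects, females only gave 0.97 for Klf1, 0.22 for Gata1 and 0.20 for Gfi1b, and males only -0.33 for Epor. With libraries left out Epor ran from -0.14 to 0.19, Car2 from -0.084 to 0.16 and Klf1 from -0.66 to 0.057.

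Fits within a sex hold 3 mice a group, so a lost call there also reflects fewer libraries. Rhd and Rhag in BC CML LSKs, and Klf1, Car1 and Ermap there at 4 to 44 counts a library, are limited by depth. No paired analysis was possible because the labels give no replicate numbers shared between groups. Nothing in the labels says which mice were litter mates or were processed together.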

Other observations

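Among WT mice the members stood higher in females than in males, by mean, in 8 of 9 genes, against 46.2% of all tested genes. For Klf1, Gfi1b, Epor, Ermap and Rhd all 3 WT females were above all 3 WT males, against 4.26% of all tested genes. Gfi1b, for example, was at 40.1, 48.6 and 41.2 CPM in the WT females and at 21.0, 23.6 and 19.9 in the males, and Ermap averaged 42.1 CPM in the females and 22.6 in the males. This order was not seen in the other groups. In miR-142 KO LSKs it was reversed by mean, with the female mean higher in 1 of 9 members, against 49.1% of all tested genes. KO replicate 3, the lowest of its group for all 9 members, is a female, and the reversal by mean rests on it. The members' mean deviation from the group, in SD units, was -2.67 in replicate 3. In the other KO females, replicates 1 and 2, it was -0.07 and 1.34. In the KO males it was 1.02, -0.65 and 1.03. The female mean was higher in 4 of 9 in CP CML (49.9% of all) and 5 of 9 in BC CML LSKs (46.1% of all). In the KO, CP CML and BC CML groups 0 members had all 3 mice of a sex above the others. The order in WT was noticed after seeing the data, and a comparison of 3 mice with 3 cannot reach an exact permutation p below 0.1. WT replicates 1 to 3 are the females, and replicate 3 is the library with the high macrophage sum, whose part in this was not tested.

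The genes whose deviations ran most against the members' mean over the 24 libraries were B4galnt4 (Pearson r = -0.883), Ifitm1 (-0.882), an interferon-induced membrane protein, and Nek6 (-0.880), a mitotic kinase. Without KO replicates 2 and 3 these were -0.767, -0.769 and -0.750. Within BC CML LSKs the value was -0.503 for B4galnt4, -0.898 for Ifitm1 and -0.825 for Nek6, over 6 libraries each.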
